A study of Mus musculus with 4 samples.

Results

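Secretory luminal cells of the mouse mammary gland with a low major casein sum were picked cell by cell from 4 single-cell RNA libraries. A cell was included when its unique molecular identifiers (UMIs, each marking 1 captured transcript) of Wfdc18, Csn3, Elf5 and Kit summed to 10 or more per 10000 UMIs of the cell, the caseins Csn1s1, Csn1s2a and Csn2 summed to under 20, the hormone-sensing genes Esr1, Prlr, Areg and Foxa1 to under 10, and the basal genes Acta2, Myh11, Mylk and Tagln to under 10. These limits left 3216 of 25950 cells, or 12.4%, after barcodes with under 1000 UMIs, under 500 genes or over 15% mitochondrial UMIs had been removed from 30062. The values of these 15 genes chose the cells, so they are given as a description only.

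The luminal layer of the mammary epithelium holds hormone-sensing cells, which carry the estrogen and progesterone receptors, and secretory cells (also called luminal progenitors and, in pregnancy, alveolar cells), which lack them and respond to signals that their neighbours release. The ETS factor ELF5 drives the secretory fate, and in pregnancy prolactin acting through STAT5 turns on the calcium-sensitive caseins and whey proteins. Progenitors of this layer are known for the KIT receptor, the retinaldehyde dehydrogenase ALDH1A3 and the lipopolysaccharide co-receptor CD14.

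The groups were Y541S mice given giredestrant, Y541S mice given vehicle, wild-type (WT) mice given giredestrant and WT mice given vehicle, with 1 library each. Giredestrant is an oral estrogen receptor antagonist and degrader, given here at 30 mg/kg daily for 4 days, and Y541S is a mutation of the receptor gene Esr1 known only from the labels, since the tables hold no sequence. Mice of every group were 6 months old and carried estradiol and progesterone pellets, so no group shows the gland without added hormones. EpCAM+ cells were sorted, and the libraries are labelled as mature luminal although basal and secretory cells are in them. The number of animals behind a library is not in the labels. With 1 library a group there is no test between groups: the intervals cover counting error only, and UMIs of 1 cell are not independent.

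The libraries differed in depth, with median UMIs per kept cell between 6267.5 in the Y541S giredestrant library and 21927 in the WT giredestrant library. Secretory cells had a median of 6143 UMIs in the Y541S giredestrant library, 14988.5 in the Y541S vehicle library, 20788.5 in the WT giredestrant library and 12775 in the WT vehicle library. Pairs of libraries shared 7 to 23 cell barcodes, at most 0.319% of the smaller library. In the secretory cells of the Y541S giredestrant library, mitochondrial ribosomal RNA (mt-Rnr2) stood at 13192 CPM (UMIs of a gene, summed over the cells of a class and scaled to the same class total in every library), against 2381 to 4508 CPM in the other 3 libraries, and Gm42418 at 18033 CPM, against 2109 to 4563 CPM. The nuclear RNA Malat1 stood at 22452 CPM there, against 7597 to 12943 CPM, and the hormone-sensing and basal cells of that library also had their highest values of these 3 RNAs. The part of this in the comparisons below was not tested.

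Secretory cells made up 449 of 8622 kept cells in the Y541S giredestrant library (5.21%, exact binomial 95% interval 4.75 to 5.70%) and 1516 of 7217 in the Y541S vehicle library (21.0%, 20.1 to 22.0%). They made up 588 of 3029 cells in the WT giredestrant library (19.4%, 18.0 to 20.9%) and 663 of 7082 in the WT vehicle library (9.36%, 8.69 to 10.1%). The share was thus lower with giredestrant than with vehicle in Y541S mice and higher with giredestrant than with vehicle in WT mice, in 1 library each. The EpCAM sort and the UMI minimum can set such shares. Basal cells, picked by mirrored limits, made up 71.5% of the WT vehicle and 35.2% of the WT giredestrant library. Beside 663 secretory cells the WT vehicle library held 634 hormone-sensing cells, and beside 588 the WT giredestrant library held 1040. The higher share in WT giredestrant therefore held among all kept cells, but not relative to hormone-sensing cells. In Y541S mice the hormone-sensing cells numbered 2455 with giredestrant and 2075 with vehicle. Without the casein limit the secretory shares in Y541S mice were 15.1% with giredestrant and 21.2% with vehicle.

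Among cells that passed the other 3 limits, the casein sum separated the Y541S giredestrant library from the rest. In that library 856 of 1305 such cells were over the casein limit, against 11 of 1527 in the Y541S vehicle library, 0 of 588 in the WT giredestrant library and 5 of 668 in the WT vehicle library. Its secretory cells formed the low end of a continuous spread, with 149 cells just inside the limit (sums of 10 to 20 UMIs per 10000) and 189 just outside (20 to 40). The median casein sum of its secretory cells was 4.88 UMIs per 10000, against 0 in each of the other 3 libraries, and 26.3% of them had no casein UMI, against 78.2%, 93.2% and 88.1% in the Y541S vehicle, WT giredestrant and WT vehicle libraries. Cells under the casein limit were therefore nearly the whole secretory compartment in 3 libraries and its casein-low end in the fourth.

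**Figure D1:**
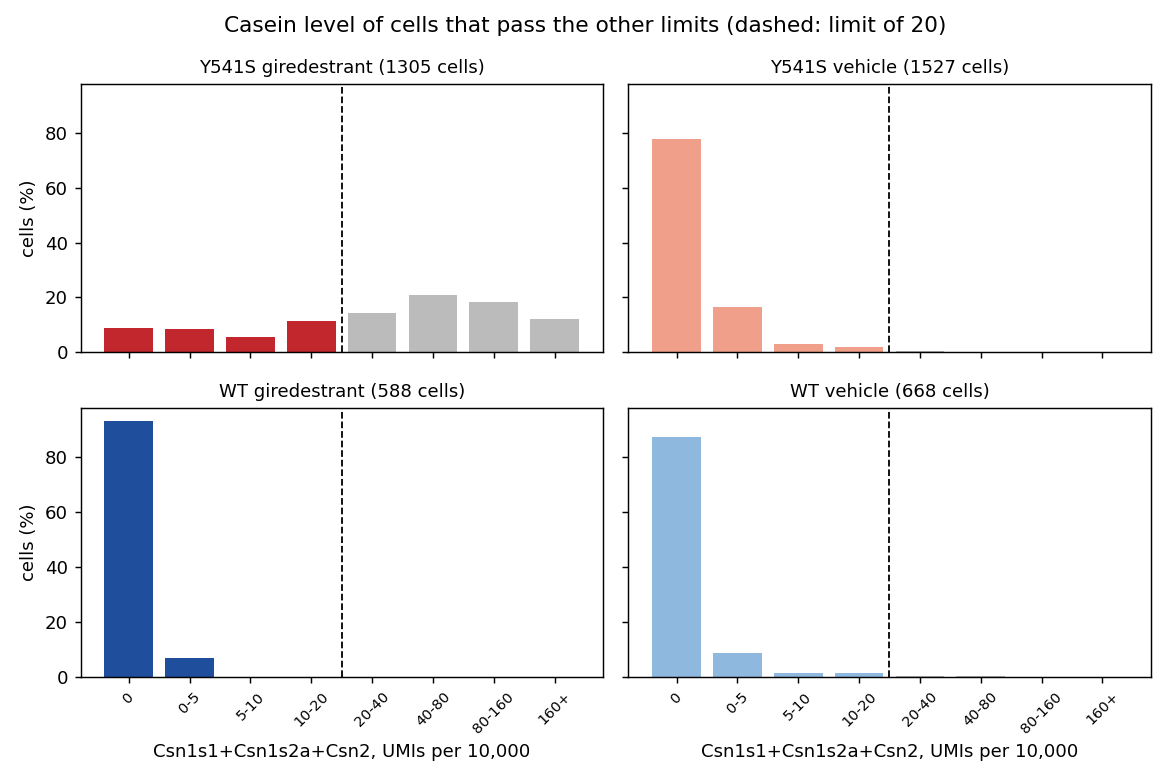
Casein sum (Csn1s1, Csn1s2a and Csn2, UMIs per 10000, x axis) of cells that passed the other 3 limits, as a percentage of those cells (y axis) in each library, with the dashed line at the limit of 20. Coloured bars are secretory cells as described here and grey bars are cells over the limit: 856 of 1305 cells lay over it in the Y541S giredestrant library and at most 11 in any other library.

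Csn2 UMIs were also found in cells of the other classes. After each cell had been thinned to 3000 UMIs, a UMI of Csn2 was found in 28.6% of secretory cells of the Y541S giredestrant library, against 5.68% of its hormone-sensing and 7.24% of its basal cells (unthinned, 42.1, 14.8 and 13.0%). In the Y541S vehicle library the thinned shares of Csn2 were 0.537% in secretory, 0% in hormone-sensing and 0% in basal cells. Csn1s1 had 515, 74.3, 4.59 and 40.6 CPM in secretory cells of the Y541S giredestrant, Y541S vehicle, WT giredestrant and WT vehicle libraries. In the same order it had 27.3, 0.11, 0.0279 and 0.106 CPM in hormone-sensing cells, and 32.9, 0.153, 0 and 0.0336 CPM in basal cells. Csn1s2a had 8.76, 2.87, 1.18 and 2.70 CPM in secretory cells of these libraries, against 7.79, 9.17, 0.0279 and 11.5 CPM in hormone-sensing cells. Across the secretory limit, the 38 cells of the Y541S giredestrant library just inside (sums of 10 to 15) held 70.7 CPM of Aldh1a3 and 1593 CPM of the luminal keratin Krt8, and the 85 cells just outside (5 to 10) held 78.3 and 1277 CPM. The cells just inside were few elsewhere, with 3, 20 and 10 cells in the Y541S vehicle, WT giredestrant and WT vehicle libraries.

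At the hormone-sensing limit, progesterone receptor (Pgr) stood at 100.3, 43.5, 15.01 and 40.5 CPM in the cells just inside (sums of 5 to 10) in the Y541S giredestrant, Y541S vehicle, WT giredestrant and WT vehicle libraries, and at 135, 242, 41.4 and 145 CPM in the cells just outside (10 to 20). At the basal limit, Krt14 stood at 150.1, 105, 28.4 and 113 CPM just inside and 1344, 507, 204 and 1124 CPM just outside, in the same order. Each of these sets held 7 to 42 cells, and both genes were higher just outside in every library.

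The 4 genes that defined the cells set them apart from the hormone-sensing and basal cells of their own library, which were picked by mirrored limits (6204 hormone-sensing and 13040 basal cells). Wfdc18, a small secreted protein with a whey acidic protein domain (GRCm38 chr11:83709015-83711348), had 4994 CPM in the Y541S giredestrant library, 11722 in Y541S vehicle, 5756 in WT giredestrant and 8630 in WT vehicle. Csn3 (chr5:87925579-87932665), the kappa-casein that coats the milk micelle, had 450.2, 1632, 907 and 937 CPM in the same order. Elf5 (chr2:103411688-103450989), the factor of the secretory fate, had 129.7, 195, 246 and 168 CPM, and Kit (chr5:75574916-75656722), the receptor of stem cell factor, had 330.1, 222, 222 and 330.2 CPM. The lowest ratio over the higher of the other 2 classes in any library was 120.3-fold for Wfdc18, 53.5-fold for Csn3, 57.3-fold for Elf5 and 64.1-fold for Kit, as the limits required.

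Markers that the limits did not use were also measured. Of 14 secretory markers in the list, 11 reached 50 CPM in the secretory cells of 1 or more libraries, and 6 of these (Aldh1a3, Cd14, Ltf, Plet1, Ehf and Rspo1) were 4-fold or more above both other classes in every library, where 1.25% of all 4334 genes measured this way were. The limits used none of these genes, but cells chosen on 4 genes of a class were compared with cells chosen against them, so the count is a description. Luminal keratins and adhesion genes summed to 12389 CPM in the Y541S giredestrant library and up to 13766 CPM in WT vehicle. Of the other cell types that the EpCAM gate could hold, 6 fibroblast genes summed to 2.10 to 16.1 CPM over the 4 libraries, 5 endothelial genes to 3.40 to 19.9 CPM, 6 immune genes to 2.30 to 5.37 CPM, 5 keratinocyte genes to 27.3 to 55.1 CPM, and 6 mast cell and melanocyte genes to 0.600 to 1.02 CPM with 3 of the 6 at 0 in every library. Hormone-sensing genes outside the limits summed to 49.7 to 135 CPM in secretory cells, against 1991 to 5111 CPM in hormone-sensing cells, and basal genes outside the limits to 96.7 to 250 CPM, against 8684 to 10106 CPM in basal cells. These values describe cells that the limits had picked against the other 2 classes, so they do not test the label of secretory luminal cells.

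The bases before the start of Wfdc18, the most abundant gene of the 4, and of the leading markers with an entry (Gabrg3, Atp6v1b1 and Fcgbp) are shown because ELF5 and EHF, both high in these cells, belong to the ETS family, whose members recognise a GGAA core. Sequences are from RefSeq (GRCm38.p6), 250 bases upstream of the annotated start, read 5′ to 3′ on the strand of the gene: chr11:83708754-83709003, plus strand for Wfdc18, chr7:57387216-57387465, minus strand for Gabrg3, chr6:83742767-83743016, plus strand for Atp6v1b1 and chr7:28070986-28071235, plus strand for Fcgbp. Capitals mark AGGAA on the printed strand or, as TTCCT, on the other strand.
Wfdc18: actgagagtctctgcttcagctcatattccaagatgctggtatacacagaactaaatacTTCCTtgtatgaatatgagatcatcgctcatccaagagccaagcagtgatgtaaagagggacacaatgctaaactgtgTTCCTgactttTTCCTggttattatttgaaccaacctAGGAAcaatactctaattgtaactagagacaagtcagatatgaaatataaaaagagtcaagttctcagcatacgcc
Gabrg3: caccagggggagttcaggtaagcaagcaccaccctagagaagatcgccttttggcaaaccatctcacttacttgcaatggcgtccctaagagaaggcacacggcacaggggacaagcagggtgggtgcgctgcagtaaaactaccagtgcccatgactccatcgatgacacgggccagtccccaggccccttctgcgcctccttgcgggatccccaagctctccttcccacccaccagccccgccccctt
Atp6v1b1: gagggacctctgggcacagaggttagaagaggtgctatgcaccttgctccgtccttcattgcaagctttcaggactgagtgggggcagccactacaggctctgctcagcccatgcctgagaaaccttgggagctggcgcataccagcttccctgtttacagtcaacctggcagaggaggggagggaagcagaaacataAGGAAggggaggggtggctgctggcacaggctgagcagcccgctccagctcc
Fcgbp: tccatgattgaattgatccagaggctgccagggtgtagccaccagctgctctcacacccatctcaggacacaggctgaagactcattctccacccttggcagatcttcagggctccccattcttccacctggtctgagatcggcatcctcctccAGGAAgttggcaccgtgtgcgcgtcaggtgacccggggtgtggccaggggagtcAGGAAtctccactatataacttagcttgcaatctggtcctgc
The motif AGGAA occurred 4 times before Wfdc18, 0 times before Gabrg3, 1 time before Atp6v1b1 and 2 times before Fcgbp, and 60.3% of all 32851 promoter windows of this length held it on either strand. Of the 15 named marker genes 11 had an entry, and 5 of the 11 held the motif in 1 or more windows.

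Across the genome 54 of 4334 genes (1.25%), outside the genes of the limits, were 4-fold or more above both hormone-sensing and basal cells in every library. The 15 named genes are those with the highest lowest-library ratio and 50 CPM or more in every library. Gabrg3, a subunit of the GABA-A receptor, led with 447 CPM in Y541S giredestrant, 235 in Y541S vehicle, 188 in WT giredestrant and 259 in WT vehicle, at least 71.2-fold above the other 2 classes in each library, where it reached 2.65 CPM at most. Atp6v1b1, a subunit of the proton pump that acidifies compartments and fluids, had 128, 80.9, 135 and 98.2 CPM in the same order. Other transport genes in the set were the nucleoside carrier Slc28a3, with 231, 288, 505 and 189 CPM, the monocarboxylate carrier Slc5a8, with 145, 239, 142 and 238 CPM, and the potassium channel Kcnd2, with 1249, 264, 497 and 638 CPM. Kcnd2 and Gabrg3 were highest in the Y541S giredestrant library and Slc28a3 in the WT giredestrant library.

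Genes of mucosal defence were also among the leading ones. Fcgbp, a mucus protein that binds immunoglobulin G, had 914, 234, 696 and 762 CPM, the lowest in the Y541S vehicle library. Muc15, a membrane mucin, had 285, 425, 363 and 407 CPM. Of 12 mucosal defence genes 7 were measured, and 5 (Muc1, Muc4, Muc15, Cd14 and Ltf) passed the same limit, where 1.25% of all genes did. Lcn2, which binds bacterial siderophores, was abundant, at 778, 1859, 1626 and 1367 CPM, but reached 1765 CPM in hormone-sensing and 1915 CPM in basal cells and was no marker of the class.

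Signalling genes completed the named set. Aldh1a3, which makes retinoic acid, had 215, 344, 315 and 464 CPM in the Y541S giredestrant, Y541S vehicle, WT giredestrant and WT vehicle libraries, against 4.44 CPM at most in the other classes. Rspo1, an amplifier of Wnt signals, had 159.7, 84.1, 95.2 and 105 CPM, and the guidance protein Ntn1 had 297, 478, 405 and 570.3 CPM. The others were Plb1 (a phospholipase), Gm266, Cytip, Ogfrl1 and Tnfaip2, with 69.2 to 246 CPM over the 4 libraries. Wnt5b, a Wnt ligand among the 54 genes, had 1946, 947, 667 and 1228 CPM, and the receptor Erbb4, which binds neuregulins, had 764, 643, 848 and 738 CPM.

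**Figure D2:**
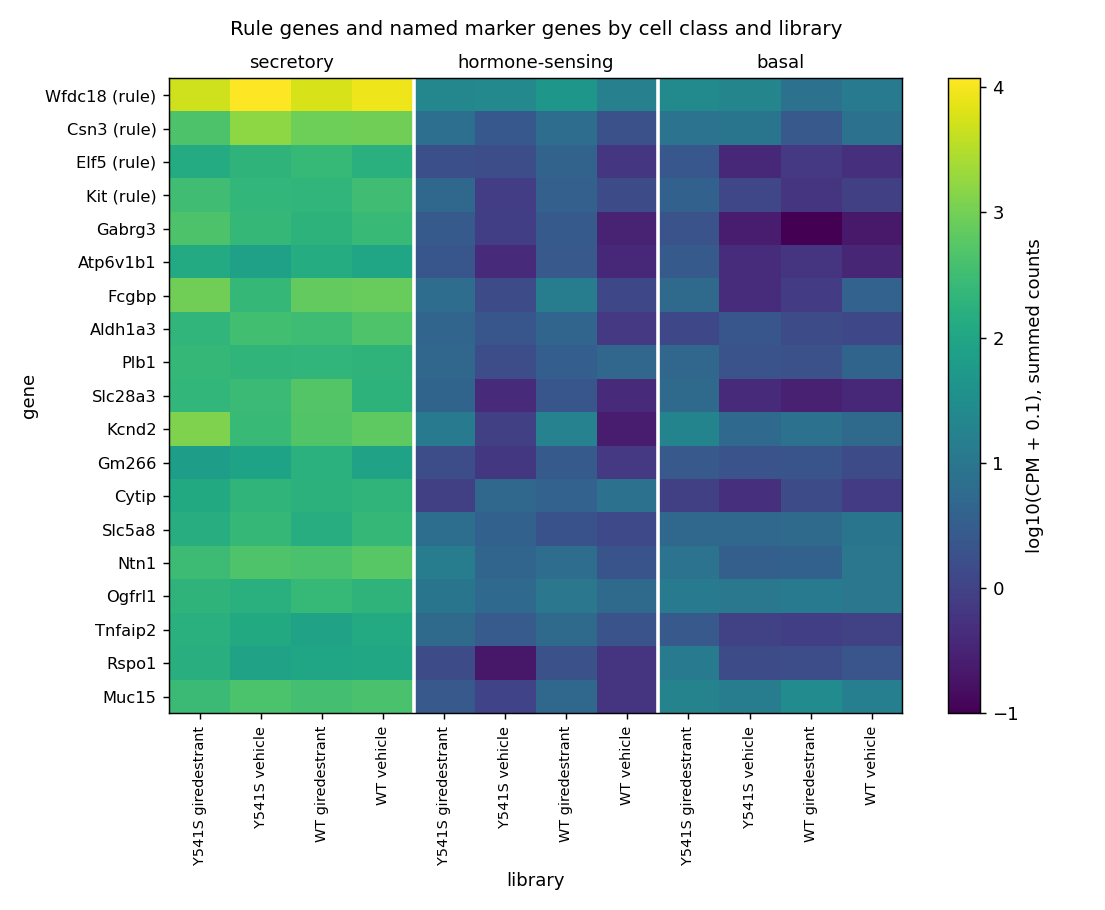
Level of the 4 rule genes and the 15 named marker genes (rows) in the secretory, hormone-sensing and basal cells of each library (columns), as log10(CPM + 0.1) of summed counts. Every row is brighter in the 4 secretory columns, with Gabrg3 between 188 and 447 CPM there and at most 2.65 CPM elsewhere.

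Genes of the pathways that instruct secretory cells were measured next. Of 6 genes of the JAK2-STAT5 pathway measured 0 passed the marker limit, near the 1.25% of all genes: Stat5a had 59.6, 88.0, 39.2 and 65.2 CPM, against 79.6 to 195 CPM in hormone-sensing cells, and the prolactin receptor was kept low by the limits. Lalba, the lactose synthase cofactor, had 3.39, 15.9, 17.9 and 7.0 CPM, and whey acidic protein (Wap) reached 2.30 CPM at most. Mfge8, a milk fat globule protein, had 1093, 763, 1191 and 1255 CPM, and Trf (transferrin) had 868, 802, 487 and 675 CPM, both short of 4-fold above basal cells in 1 or more libraries. Among lineage factors Ehf was the only 1 of 10 measured that passed the marker limit, against 1.25% of all genes, with 406, 378, 450.1 and 403 CPM. The receptor of RANK ligand, Tnfrsf11a, had 14.5 to 23.4 CPM, against 21.6 to 30.3 CPM in basal cells.

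The shares of secretory cells with a UMI of a gene are given at equal depth. Those of Wfdc18, Csn3, Elf5 and Kit describe genes whose sum chose the cells, and a cell without a UMI may still express the gene. With cells thinned to 3000 UMIs (99, 26, 7 and 39 shallower secretory cells left out in the Y541S giredestrant, Y541S vehicle, WT giredestrant and WT vehicle libraries), Wfdc18 was found in 97.7 to 99.9% of cells, against 2.01 to 7.54% of hormone-sensing and basal cells, whose median depths before thinning were 8633 to 29618 and 5366 to 17748 UMIs. Csn3 was found in 45.1% of cells in the Y541S giredestrant library (95% interval 39.8 to 50.5%), 65.7% in Y541S vehicle (63.2 to 68.1%), 58.0% in WT giredestrant (53.9 to 62.1%) and 43.6% in WT vehicle (39.7 to 47.6%), against 0.575 to 2.34% of cells of the other classes. Unthinned, the shares were 54.6, 80.7, 80.1 and 56.6%. Elf5 was found in 32.6, 42.2, 48.5 and 35.1% of thinned cells, and Kit in 50.3, 44.6, 47.0 and 53.0%, against at most 1.28% of cells of the other classes for each; unthinned, Elf5 was found in 52.6, 87.9, 92.9 and 76.8% and Kit in 73.5, 86.5, 93.7 and 88.7%. Aldh1a3 was found in 29.1% of cells of the Y541S giredestrant library (24.4 to 34.2%), below the 42.1 to 50.5% of the other 3 libraries, and Rspo1 in 34.0% (29.0 to 39.2%), above their 18.1 to 23.1%. In hormone-sensing and basal cells the shares were at most 1.24% for Aldh1a3 and 3.38% for Rspo1. Unthinned, Aldh1a3 was found in 37.0, 74.1, 79.6 and 75.4% of secretory cells and Rspo1 in 51.9, 52.6, 59.7 and 51.4%, so the order for Rspo1 held only at equal depth.

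**Figure D3:**
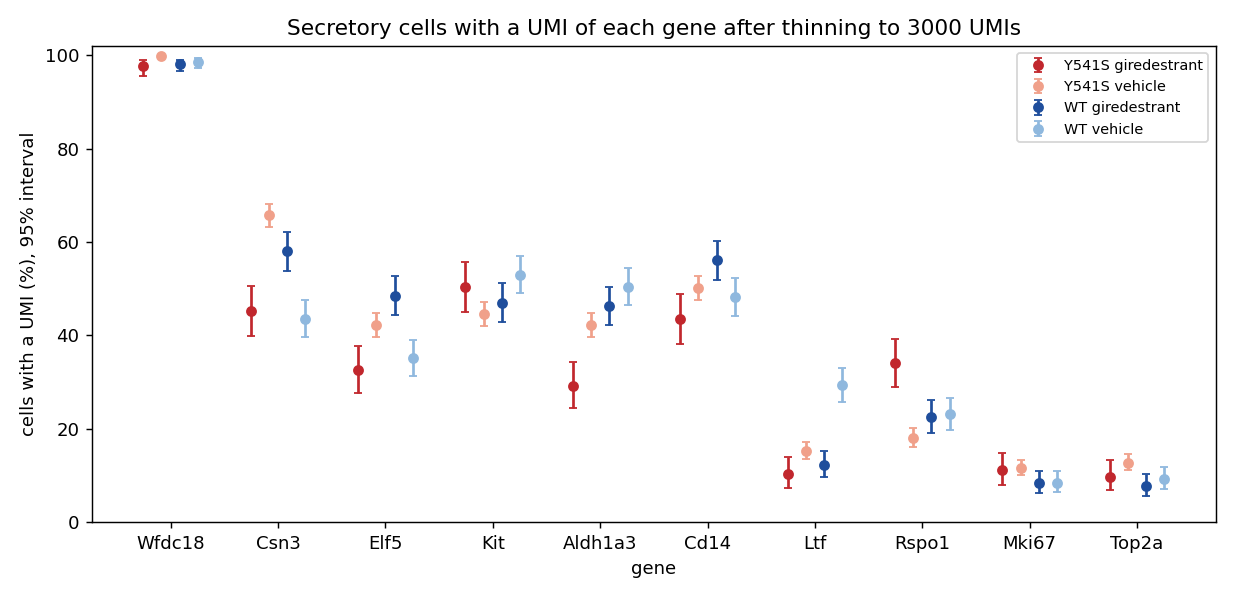
Percentage of secretory cells with a UMI of each gene after thinning to 3000 UMIs (y axis), by library; points are shares and bars exact binomial 95% intervals for counting error. Csn3 spans 43.6 to 65.7% and Ltf is highest in the WT vehicle library, at 29.3%.

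Cells with and without a UMI of Csn3 were compared as a description, since Csn3 is a gene of the selection sum and the casein limit cut the Y541S giredestrant cells. Aldh1a3 was found in 16.5% of 158 secretory cells with Csn3 and 39.6% of 192 without it in the Y541S giredestrant library. With Y541S vehicle the shares were 43.8 and 38.9%, with WT giredestrant 46.6 and 45.9%, and with WT vehicle 48.9 and 51.7%. Mki67, a gene of dividing cells, had a higher share in cells with Csn3 than in cells without it in all 4 libraries: 12.03 against 10.4%, 14.9 against 5.28%, 11.3 against 4.51%, and 11.4 against 6.25%. The share with Mki67 was lower in cells with Cd14, at 6.58 against 14.6%, 8.56 against 14.7%, 5.83 against 11.8%, and 5.98 against 10.8% of cells without Cd14. These are shares of cells within a library and were not tested.

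Immediate early genes were among those whose counts varied most from cell to cell. Among 4187 genes with 0.1 or more thinned UMIs per cell in every library, the variance over the mean was 1.04 for the median gene, and its lowest value over the 4 libraries was 23.4 for Fos, 7.62 for Jun and 7.42 for Atf3, which encode AP-1 and related factors. It was 11.9 for Csmd1. This ratio rises with a gene's mean count, which was 2.95 to 6.15 thinned UMIs per cell for Fos and 0.737 to 3.89 for Csmd1.

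Giredestrant in wild-type mice was compared with vehicle over the summed counts of 588 and 663 secretory cells. Log2 ratios below are relative to the median gene of the comparison, a shift of at most 0.054, and a gene counts as higher or lower at 2-fold. Of 6725 genes at a mean of 20 CPM or more, 61 (0.907%) were higher and 81 (1.2%) were lower with giredestrant. Hey1, a repressor downstream of Notch, had 60.9 CPM with giredestrant and 13.5 CPM with vehicle, a relative log2 ratio of 2.12 (95% interval 1.86 to 2.39). After thinning, it was found in 15.1% of secretory cells with giredestrant (12.3 to 18.3%) and 3.21% with vehicle (1.97 to 4.91%), against 0.0974 and 0.321% of hormone-sensing and 2.11 and 2.11% of basal cells of the same libraries. Unthinned, the shares of secretory cells were 42.5% with giredestrant and 11.5% with vehicle. Hey1 was the 1 of 6 measured Notch genes that was higher and 0 were lower, where 0.907% of all genes were higher.

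Ccl5, a chemokine, had the highest ratio of the named genes, 4.16, with 44.7 CPM under giredestrant and 2.40 CPM under vehicle. It rested on few cells: 12 of 588 secretory cells with giredestrant and 5 of 663 with vehicle held a UMI, and 1 cell held 587 of the 642 UMIs. Cnnm2, linked to magnesium transport, had 100.04 and 20.2 CPM, and Rtp4, an interferon-inducible chaperone, had 41.5 and 10.7 CPM (relative log2 ratio 1.90, 1.60 to 2.21). Both were also higher in hormone-sensing cells of the same libraries, at 1.93 for Cnnm2 and 3.55 for Rtp4, and Cnnm2 in basal cells, at 1.10. Isg15, a ubiquitin-like interferon product, had 44.8 and 13.5 CPM (1.68, 1.41 to 1.96), and it was the 1 of 3 measured interferon genes that was higher, 0 being lower, where 0.907% of all genes were higher. The other named genes, Rpl10-ps3, Rpl9-ps6, Rnaset2a and Rnaset2b, have near-identical copies between which reads can be split, and they were also 2-fold or more higher in the hormone-sensing and basal cells of the same libraries.

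Lower with giredestrant in wild-type mice were Timp3, an inhibitor of matrix metalloproteinases, with 14.4 CPM and 94.1 CPM under vehicle (relative log2 ratio -2.76, -2.99 to -2.54), and Pdk4, the kinase that shuts off pyruvate dehydrogenase, with 27.1 and 152 CPM (-2.54). In hormone-sensing cells the ratio was -1.29 for Timp3, from 2.28 and 4.57 CPM, and -4.11 for Pdk4, from 5.57 and 78.8 CPM. In basal cells it was -0.49 for Timp3 and -0.63 for Pdk4. Basal cells held more Timp3 than secretory cells, with 186 and 247 CPM, and the part of free RNA in its values was not tested. Ltf, the iron-binding milk and mucosal protein lactoferrin, had 75.1 CPM with giredestrant and 353 CPM with vehicle (-2.29, -2.39 to -2.19), and was found in 12.2% of thinned secretory cells with giredestrant and 29.3% with vehicle, against 0.195 and 0.161% of hormone-sensing cells (unthinned, 34.2 and 43.1% of secretory cells). Crip1, a small LIM protein, had 149 and 625 CPM, and more in hormone-sensing cells, with 474 and 1404 CPM. The actin cross-linker Flnc had 8.42 and 43.8 CPM, the scaffold gene Dlg2 (ENSMUSG00000052572) had 154 and 537 CPM, Il1rapl1 had 7.93 and 37.8 CPM, and the histone gene Hist1h2ap had 13.1 and 42.8 CPM. In hormone-sensing cells these genes came to -1.31, 4.08, -0.91 and -1.75, and in basal cells to -1.67, -0.46, 0.34 and -2.08. Flnc and Hist1h2ap were thus lower in all 3 classes, and basal cells held more Flnc, with 25.7 and 77.2 CPM. Of 8 mucosal defence genes measured, 3 (Ltf, Muc4 and Wfdc2) were lower and 0 higher, and their median ratio was -0.32, where 1.2% of all genes were lower and the median of all genes is 0. Wfdc2 stood at 384 to 4265 CPM in hormone-sensing cells, against 16.1 to 82.1 CPM in secretory cells, and the part of free RNA in its values was not tested. Hp, the hemoglobin-binding acute phase protein haptoglobin, had 2.71 and 62.5 CPM in secretory cells and was also lower in hormone-sensing cells, with 95.9 and 1812 CPM, and in basal cells. The part of free RNA in the Hp values was not tested. The basal keratin Krt14 had 9.32 and 59.0 CPM (-2.72) and Krt17 18.5 and 69.2 CPM (-1.96), and 2 of 588 and 12 of 663 secretory cells had a basal keratin sum of 10 or more per 10000 UMIs. Without such cells the ratios were -0.66 for Krt14 and -0.30 for Krt17.

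Of 12 estrogen response genes measured in wild-type secretory cells, 2 (Fhl2 and Mybl1) were 2-fold or more lower under giredestrant and 0 higher, with a median of -0.23, where 1.2% of all genes were lower and 0.907% higher, and Mybl1 lost its 2-fold difference, at -0.88, after thinning. In Y541S cells 0 of 12 differed 2-fold, with a median of -0.028, where 2.36% of all genes were higher and 5.57% lower, so a count of 0 is near the share of all genes.

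Giredestrant in Y541S mice was set against vehicle over 449 and 1516 secretory cells, with mt-Rnr2 at 13192 and 2381 CPM. Of 6607 genes, 156 (2.36%) were higher and 368 (5.57%) lower with giredestrant; with TMM scaling the counts were 115 and 491, and with no casein limit 226 genes were lower. Tspan8, a cell surface tetraspanin, had 9.04 CPM with giredestrant and 164 CPM with vehicle (relative log2 ratio -4.23, -4.78 to -3.73), against 159 and 162 CPM in the WT giredestrant and WT vehicle libraries. It was found in 25 of 449 secretory cells with giredestrant and 1062 of 1516 with vehicle, unthinned. With no casein limit its ratio was -3.31.

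Cst3, Gpc6 and Mme were low in the same library. The cysteine protease inhibitor Cst3 had 29.4 CPM with giredestrant and 229 CPM with vehicle (-3.01, -3.31 to -2.73), with UMIs in 72 of 449 and 1115 of 1516 cells. Gpc6, a glypican, had 94.7 and 567 CPM (-2.63, -2.79 to -2.47), and the peptidase Mme had 18.1 and 87.0 CPM (-2.32, -2.70 to -1.96). In basal cells of the same libraries, the relative log2 ratio was -0.96 for Cst3, 0.28 for Gpc6 and 0.41 for Mme. Basal cells held 1188 and 936 CPM of Gpc6, and 116 and 83.5 CPM of Mme. In hormone-sensing cells the ratio was 0.18 for Cst3, 2.5 for Gpc6 (51.0 and 8.02 CPM) and 0.99 for Mme (1.13 and 0.513 CPM). Dlg2 had 9.61 and 118 CPM, Hp 56.0 and 263 CPM, Hpse2 9.33 and 39.3 CPM, and the cyclin-dependent kinase gene Cdk1 17.5 and 65.8 CPM. Hp was also lower in hormone-sensing cells, with 47.0 and 968 CPM (-4.52), where Dlg2 and Cdk1 came to -2.57 and -1.65. Hpse2 was lower in basal cells, with 20.8 and 156 CPM (-2.97), but higher in hormone-sensing cells, at 2.63. The part of free RNA in the values of Hp and Hpse2 was not tested. Hpse2 came to -1.09 after thinning, against -2.13.

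Higher with giredestrant in Y541S secretory cells were 2 class I histocompatibility genes, H2-Q6 with 65.6 and 6.52 CPM (relative log2 ratio 3.28, 2.99 to 3.58) and H2-Q7 with 207 and 22.1 CPM (3.18, 3.02 to 3.34). These 2 genes are near-identical, so reads can be split between them. In hormone-sensing cells of the same libraries H2-Q6 and H2-Q7 lay the other way, at -2.80 and -3.51. In basal cells both were higher, at 2.91 and 2.24. Cftr, the chloride channel of secretory epithelia, had 36.5 CPM with giredestrant and 4.32 CPM with vehicle (3.03, 2.65 to 3.41), found in 63 of 449 and 59 of 1516 cells, and the matrix protein Smoc1 had 37.6 and 4.16 CPM (3.13). The transmembrane mucin Muc4 had 341 and 45.1 CPM (2.87, 2.75 to 2.99). It was also higher in hormone-sensing cells, with 7.02 and 0.183 CPM (5.11), and in basal cells, with 7.04 and 0.0256 CPM (8.04). The basal vehicle value is 1 UMI. Muc4 was the 1 of 8 measured mucosal defence genes that was higher, and 3 were lower. Their median was -0.73, where 2.36% of all genes were higher and 5.57% lower. Hexokinase Hk2 had 75.5 and 13.7 CPM (2.41), the 1 of 9 glycolysis and hypoxia genes that was higher, 0 being lower, where 2.36% of all genes were higher.

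The highest ratio of the named genes, 5.23 for the mesothelin gene Msln (61.0 and 1.57 CPM), rested on few cells, since 10 of 449 secretory cells held all 216 UMIs with giredestrant and 16 of 1516 held 40 UMIs with vehicle. Mir6236 (1615 and 52.8 CPM), Camk1d (663 and 68.8 CPM) and Cmss1 (2049 and 234 CPM) completed the named genes. All 3 were more than 3-fold higher in hormone-sensing and basal cells of that library too, with relative log2 ratios of 1.86 to 4.65, and so were higher in all 3 classes. Of 10 hormone-sensing genes outside the limits 2 were measured and both were higher, where 2.36% of all genes were: Calca had 54.3 and 1.69 CPM (4.96; 4.30 in hormone-sensing and 4.74 in basal cells) and Wnt4 37.0 and 13.3 CPM (1.43). The list summed to 135 CPM with giredestrant and 49.7 CPM with vehicle, and its part in the other differences was not tested.

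**Figure D4:**
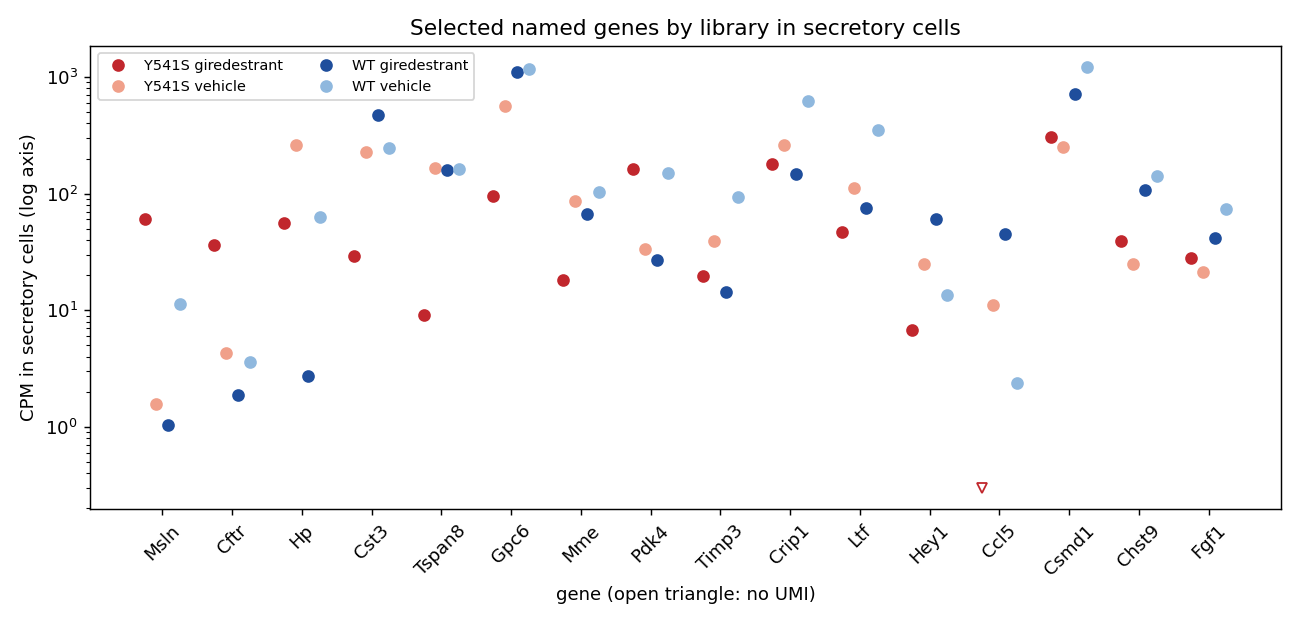
Level (CPM, log axis) of 16 named genes in the secretory cells of each library; each point is 1 library and the open triangle marks no UMI. Tspan8, Cst3, Gpc6 and Mme are low in the Y541S giredestrant library only, and Ltf, Timp3 and Crip1 are highest in the WT vehicle library.

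The 2 giredestrant comparisons have no library in common and can be set side by side. Of 6398 genes measured in both, 14 were lower in both, which is 19.4% of the 72 lower in wild type and 3.84% of the 365 lower in Y541S mice, and 4 were higher in both (8.33% of 48 and 3.36% of 119). In opposite directions lay 10 genes higher in wild type and lower in Y541S (20.8% of 48 and 2.74% of 365). Another 12 were lower in wild type and higher in Y541S (16.7% of 72 and 10.1% of 119). Of all genes measured in each comparison, 0.907% were higher and 1.2% lower in wild type, and 2.36% higher and 5.57% lower in Y541S. Overlaps in the same and in opposite directions can be read beside these shares, and neither was tested. Ltf was lower in both genotypes, at -2.29 in wild type and -1.29 in Y541S, and so was the calcium-binding gene S100a6, with 501.6 CPM under giredestrant and 1181 under vehicle in Y541S cells, and 708 and 1603 CPM in wild-type cells. With a casein sum under 5 the ratio of Ltf in Y541S cells was -0.89. Cd74, the invariant chain of class II histocompatibility molecules, was higher in both, at 1.22 in wild type and 2.11 in Y541S, and the other 6 class II genes were under the level measured.

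Y541S was compared with wild type under vehicle over 1516 and 663 secretory cells, and it had the fewest genes past 2-fold of the 4 comparisons. Of 6634 genes, 20 (0.301%) were higher and 74 (1.12%) lower, and TMM scaling gave 27 and 54. Csmd1, a large complement-control protein, had 251 CPM in Y541S and 1219 CPM in wild-type cells (relative log2 ratio -2.31, -2.35 to -2.26), and Chst9, a sulfotransferase, had 24.8 and 140.4 CPM (-2.53). Pdk4 had 33.2 and 152 CPM (-2.22), Fgf1 21.2 and 73.9 CPM (-1.83), the carboxypeptidase Cpe 9.03 and 32.6 CPM (-1.88), and Dlg2 118 and 537 CPM (-2.22). Il1rapl1 and Flnc, at -2.18 and -1.83, were the other named genes on the lower side, and came to -0.12 and -1.57 in basal cells. Ltf had 111 and 353 CPM (-1.69). Since this comparison uses the WT vehicle library of the one above, Ltf, Pdk4, Dlg2, Flnc and Il1rapl1 appear in both with the same WT vehicle values.

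Higher in Y541S under vehicle were Rims2, a synaptic release gene, with 39.0 and 6.80 CPM (2.49, 2.14 to 2.87), the muscarinic receptor Chrm3, with 131 and 47.8 CPM (1.43, 1.29 to 1.57), and Lbp, the lipopolysaccharide-binding protein, with 31.4 and 10.1 CPM (1.61, 1.31 to 1.92). Hormone-sensing cells held more Rims2, with 51.5 and 45.8 CPM, and the part of free RNA in its values was not tested. Hp had 263 and 62.5 CPM (2.04), though hormone-sensing cells of the Y541S vehicle library held more, 968 CPM. The chemokine Cxcl2 had 52.1 and 15.7 CPM (1.70), and 10 cells held 46.9% of its UMIs in Y541S and 89.8% in wild type. Of 7 NF-kB and acute phase genes 2 (Hp and Cxcl2) were higher and none lower, where 0.301% of all genes were higher. Ube2c, of the mitotic ubiquitin ligase, Nlrp4e and Rpl9-ps6 were the remaining named genes, at 1.31, 1.70 and 1.82. In hormone-sensing cells of the same libraries they came to 1.02, 2.02 and 1.90, and in basal cells to 0.53, 1.72 and 1.73. Nlrp4e and Rpl9-ps6 were thus higher in all 3 classes.

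Y541S was also compared with wild type under giredestrant, over 449 and 588 secretory cells. Of 6692 genes, 203 (3.03%) were higher and 261 (3.9%) lower in Y541S. This comparison uses both giredestrant libraries again, and many of its named genes were given above: Tspan8 at 9.04 and 159 CPM (-4.12), Cst3 at 29.4 and 474 CPM (-4.00), Gpc6 at 94.7 and 1097 CPM (-3.52), Dlg2 at 9.61 and 154 CPM (-3.99) and Hey1 at 6.78 and 60.9 CPM (-3.16). Ramp1, a partner of calcitonin-type receptors, had 10.5 CPM in Y541S and 77.4 CPM in wild type (-2.88, -3.39 to -2.40). The ribosomal gene Rps4l had 3.39 and 37.4 CPM (-3.45). Ramp1 was also lower in hormone-sensing and basal cells of the same libraries, at -2.01 and -1.998, so its difference was not confined to secretory cells. Rps4l came to -0.68 and -0.73 in those classes. Ccl5 had no UMI in 449 Y541S cells, which allows a share of up to 0.668% of cells with a UMI, against 12 of 588 wild-type cells. No fold is given, since 1 wild-type cell held 587 of the 642 UMIs.

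On the higher side of that comparison, Peg3, an imprinted zinc-finger gene, had 57.4 CPM in Y541S and 4.87 CPM in wild type (3.57, 3.17 to 3.98), Srgap1 had 56.8 and 5.43 CPM (3.40), and Erdr1 had 395 and 36.9 CPM (3.43), and all 3 were also higher in hormone-sensing cells of the same libraries, at 4.33, 3.82 and 3.29. Hp had 56.0 and 2.71 CPM (4.38), with UMIs in 53 of 449 and 14 of 588 cells. In wild type 10 cells held 89.7% of its 39 UMIs. The ratio of Hp came to 6.72 after thinning, which leaves fewer UMIs still. In hormone-sensing cells Hp lay the other way, with 47.0 CPM in Y541S and 95.9 CPM in wild type (-0.97). Msln, Mir6236, Camk1d and Cmss1 were the other named genes, at 5.88, 4.59, 3.55 and 3.36, with the cell counts and the values in other classes given above. The factor Tfap2b had 3.11 and 38.4 CPM (-3.62), the 1 of 13 lineage factors that was lower, 0 being higher, which is near the 3.9% of all genes that were lower.

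Cell cycle genes were more abundant in secretory cells than in both other classes in every library. The 11 G2/M genes summed to 440.0 CPM in secretory cells of the Y541S giredestrant library, 698 in Y541S vehicle, 515 in WT giredestrant and 428 in WT vehicle, against 147 to 272 CPM in hormone-sensing and 160 to 220.3 CPM in basal cells. The 12 S phase genes summed to 267, 518, 438 and 370.1 CPM, against 123 to 221 and 154 to 179 CPM. None was a marker of the class at 4-fold. Cells with 3 or more G2/M UMIs after thinning made up 9.14% of secretory cells in Y541S giredestrant (6.34 to 12.7%), 15.4% in Y541S vehicle (13.6 to 17.3%), 8.61% in WT giredestrant (6.46 to 11.2%) and 10.6% in WT vehicle (8.28 to 13.3%).

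With giredestrant 5 of 8 G2/M genes and 4 of 10 S phase genes were 2-fold or more lower in Y541S secretory cells and none higher, with medians of -1.19 and -0.96, where 5.57% of all genes were lower. Birc5, an inhibitor of apoptosis that rides on mitotic chromosomes, had 22.9 and 76.0 CPM (-1.78), and the replication helicase subunit Mcm3 had 18.9 and 48.9 CPM (-1.42). Mki67 lay the other way, with 126 CPM under giredestrant and 94.3 CPM under vehicle, and was found in 11.1 and 11.6% of thinned cells. Of the 9 genes, 3 lost the 2-fold difference after thinning: Ccnb2 at -0.74, Cdc20 at -0.91 and Tyms at -0.93. With a casein sum under 5, 4 lost it: Ccnb2 at -0.66, Rrm2 at -0.78, Cdc20 at -0.93 and Mcm5 at -0.97. With no casein limit Ccnb2 came to -0.61. In wild-type cells 0 of 8 G2/M and 0 of 8 S phase genes differed 2-fold with giredestrant, with medians of 0.20 and 0.25, where 0.907% of all genes were higher and 1.2% lower, so these counts are near the share of all genes. The difference between the genotypes was not tested.

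**Figure D5:**
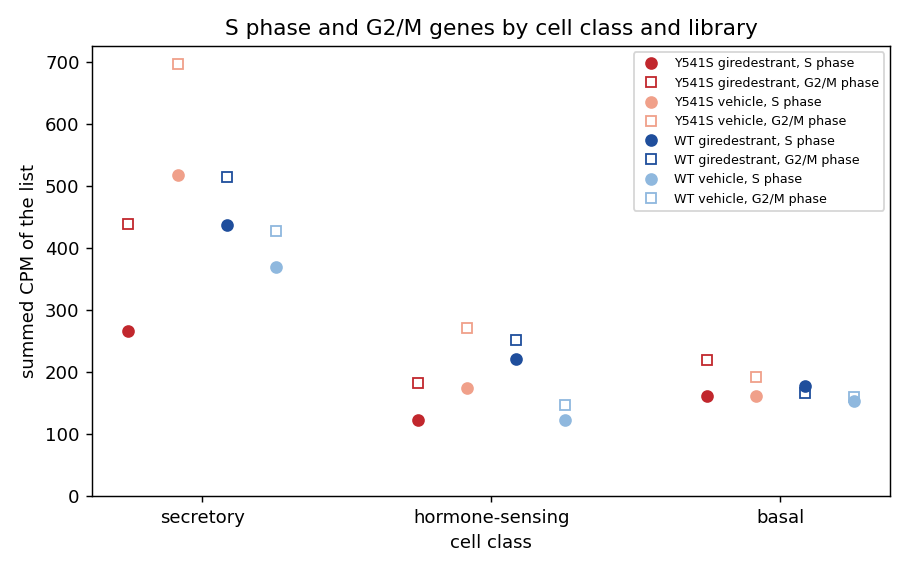
Summed CPM of 12 S phase genes (filled circles) and 11 G2/M genes (open squares) in secretory, hormone-sensing and basal cells of each library. All 4 secretory G2/M sums, 428 to 698 CPM, lie above the sums of the other classes, and the Y541S giredestrant library has the lowest secretory S phase sum, 267 CPM.

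In the Y541S giredestrant library the cells under the casein limit could be set beside the 856 over it, from the same library. Of 6454 genes, 34 were 2-fold or more higher and 45 lower in the casein-high cells, as a description of cells that the casein sum itself divided. The retinoic acid enzyme Aldh1a3 had 215 CPM in the cells under the casein limit and 74.2 CPM in casein-high cells. Gabrg3 had 447 and 108 CPM, and the factor Sox6 had 51.2 and 11.7 CPM. Lalba had 3.39 and 49.0 CPM, the milk fat globule protein Btn1a1 had 32.2 and 86.2 CPM, and the lipase Lpl had 13.6 and 42.7 CPM. Aldh1a3, Gabrg3 and Sox6 were thus higher below the casein limit, and Lalba, Btn1a1 and Lpl higher above it.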

How the data were processed

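RNA of single cells was counted in 4 libraries, 1 for each group. The deposited matrices hold whole UMI counts per gene and cell barcode, made by the authors with Cell Ranger 6.0.1 per the file headers and on GRCm38 per the submitters' processing notes; the annotation release was not given in the sources used here. The other deposited text files list barcodes and genes. Of 52636 genes, 52489 had their ID in GENCODE vM21. Cells needed 1000 UMIs, 500 genes and at most 15% mitochondrial UMIs. No doublets were removed; removal of the highest Scrublet scores (0.8% per 1000 cells) was an alternative, since Scrublet's own threshold marked 0.0282 to 2.97% of barcodes.

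Counts were summed per library and cell class and divided by the class total (CPM). Ratios were centred on the median of genes at a mean of 20 CPM or more, with exact conditional binomial 95% intervals and, for a sum of 0, a floor of 3 counts over the group. With 1 library a group no test was possible. Named are the 15 leading markers (50 CPM in every library) and, per comparison, the 8 highest and 8 lowest genes at 0.25 times or more of their level in the other classes, without mitochondrial and predicted genes, and members of gene lists. The cells, lists and rules were chosen with earlier results of these data known. Python 3.11.15, SciPy 1.17.1, Scanpy 1.11.5 and, for TMM, edgeR 4.0.16 were used, and the ratios were tested on simulated data.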

Additional observations from a re-analysis of the deposited data

Results flagged for a closer look

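Among the named genes, 5 differed 2-fold or more with giredestrant in opposite directions in secretory cells of Y541S and wild-type mice, each from 1 library against 1 library, and the difference between the genotypes was not tested. The relative log2 ratio of giredestrant over vehicle for Pdk4 was 2.25 in Y541S and -2.54 in wild-type cells. For Flnc it was 1.09 in Y541S and -2.43 in wild-type cells. For Mir6236 it was 4.89 and -1.42, and for Camk1d 3.22 and -1.09, in Y541S and wild-type cells. For Rpl9-ps6, whose reads can be shared with near-identical copies, it was -1.66 in Y541S and 2.16 in wild-type cells. Muc4, Erdr1 and Ramp1, named above on other grounds, also lay in opposite directions and are not among the 5. Muc4 had 341 and 45.1 CPM with giredestrant and vehicle in Y541S cells, and 41.0 and 105 CPM in wild-type cells. In the same order Erdr1 had 395, 153, 36.9 and 89.8 CPM, and Ramp1 had 10.5, 34.1, 77.4 and 35.4 CPM.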

How the results depend on the processing

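No paired analysis was possible because the labels give no replicate numbers that groups share. Of 1665 gene values under alternatives, 1466 stayed within the counting interval, 196 left it in the same direction and 3 reversed: in Y541S against WT cells under vehicle, Krt14 came to 0.59 after thinning and 0.60 with basal keratins under 10 UMIs per 10000, and Krt17 to 0.21 with the keratin limit. The share of secretory cells in the Y541S giredestrant library was 4.51% at a secretory sum of 20 or more, 15.1% with no casein limit and 2.63% with a casein sum under 5; in the Y541S vehicle library it was 22.0% with doublets removed and 19.9% with a casein sum under 5. Marker genes numbered 121 at 10 CPM, 151 at 2-fold, and 55 to 63 without each library in turn, an alternative chosen after seeing the data. Genes higher and lower with giredestrant in wild type numbered 144 and 182 at a mean of 5 CPM and 554 and 600 with only 20 counts required, and 96 were higher after thinning. In Y541S they numbered 431 and 622 at 5 CPM, 1040 and 1291 at 20 counts, and 226 were lower with no casein limit. For Y541S against WT under vehicle they were 59 and 168 at 5 CPM, 385 and 647 at 20 counts, 39 and 120 after thinning, and 136 were lower by the mean over cells. Under giredestrant they were 497 and 607 at 5 CPM, and 964 and 1295 at 20 counts. The looser filters test more genes with fewer counts each; for the other alternatives the cause was not tested. Depth limits the Y541S giredestrant library most, where 22.0% of secretory cells held under 3000 UMIs.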
